A study of Mus musculus with 2 samples.

Results

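The genes described here encode the proteins of cell-cell junctions: claudins and their scaffold proteins, desmosome components, classical cadherins, nectins and connexins. They were chosen by a rule on names that uses no measured value, as the protein-coding genes of the claudin, desmoglein, desmocollin, plakophilin, connexin, Tjp and nectin families, plus Dsp, Jup, Perp, Ocln, Cgn, Cdh1, Cdh2 and Cdh3. The rule found 71 genes among 21474 protein-coding genes with a symbol, and all 71 were in both gene tables. Total RNA came from the embryonic face (facial prominence) of B6NCrl mice on day 14.5 of development, in 1 group of 2 biological replicates that carry no mutation or treatment in the labels. Each replicate is labelled as the face of 1 embryo, collected on its own day, while the sex is given as pooled from both sexes. Embryo and collection day therefore cannot be told apart. No second condition exists, so the data give levels and the difference between 2 libraries, and no test across embryos was made.

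Tight junctions seal the space between epithelial or endothelial cells, with claudins and occludin as their membrane proteins and the Tjp proteins and cingulin beneath the membrane. Desmosomes join keratin filaments of neighbouring cells through desmogleins and desmocollins, which bind plakoglobin, plakophilins and desmoplakin. Adherens junctions hold cells together through cadherins and nectins, and gap junctions are channels made of connexins that let small molecules pass from cell to cell. In the fetal face these genes are used by surface and oral epithelium, tooth buds, nasal lining, vessels, nerves, muscle and bone-forming mesenchyme.

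Levels are in TPM, a share of all transcripts corrected for transcript length, on which genes can be set side by side. Paired values are given with replicate 1 first. Means are given ± SD over the 2 libraries, with n = 2 throughout. The libraries held 30919488 expected counts in replicate 1 and 37738872 in replicate 2. A count of 0 allows up to 0.0761 and 0.0589 TPM at an effective length of 2000 bases. This floor and the exact intervals below cover counting error only, and they treat each read as independent. The reads were counted without molecular identifiers, so repeated reads of 1 molecule were not removed. The intervals may therefore be too narrow. Marker genes of the expected tissues were present: all 6 mesenchyme markers and all 12 basal epithelial, 8 endothelial, 6 peripheral glial, 6 neuronal, 5 osteoblast and 5 chondrocyte markers reached 1 TPM in both libraries. Of 6 lens markers 2 did.

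Of the 71 junction genes 46 reached 1 TPM in both libraries, or 64.8%, against 63.9% of all protein-coding genes. A further 3 reached it in 1 library and 22 in neither, of which 4 had no count in either library. The share was uneven between the families. All 5 tight junction scaffold genes with occludin and all 7 desmosome plaque genes with Perp passed, as did all 4 nectins. The 3 classical cadherins of the rule also passed, along with 6 of 9 desmosomal cadherins, 12 of 23 claudins and 9 of 20 connexins. Cdh1, Cdh2, Cdh3, Dsp, Jup, Perp, Ocln and Cgn were named singly, while claudins and connexins came as whole name families. The shares of the classes are therefore not like for like. In bulk tissue, fewer cells of a type and less RNA per cell cannot be told apart, so these are levels of the whole face.

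**Figure D1:**
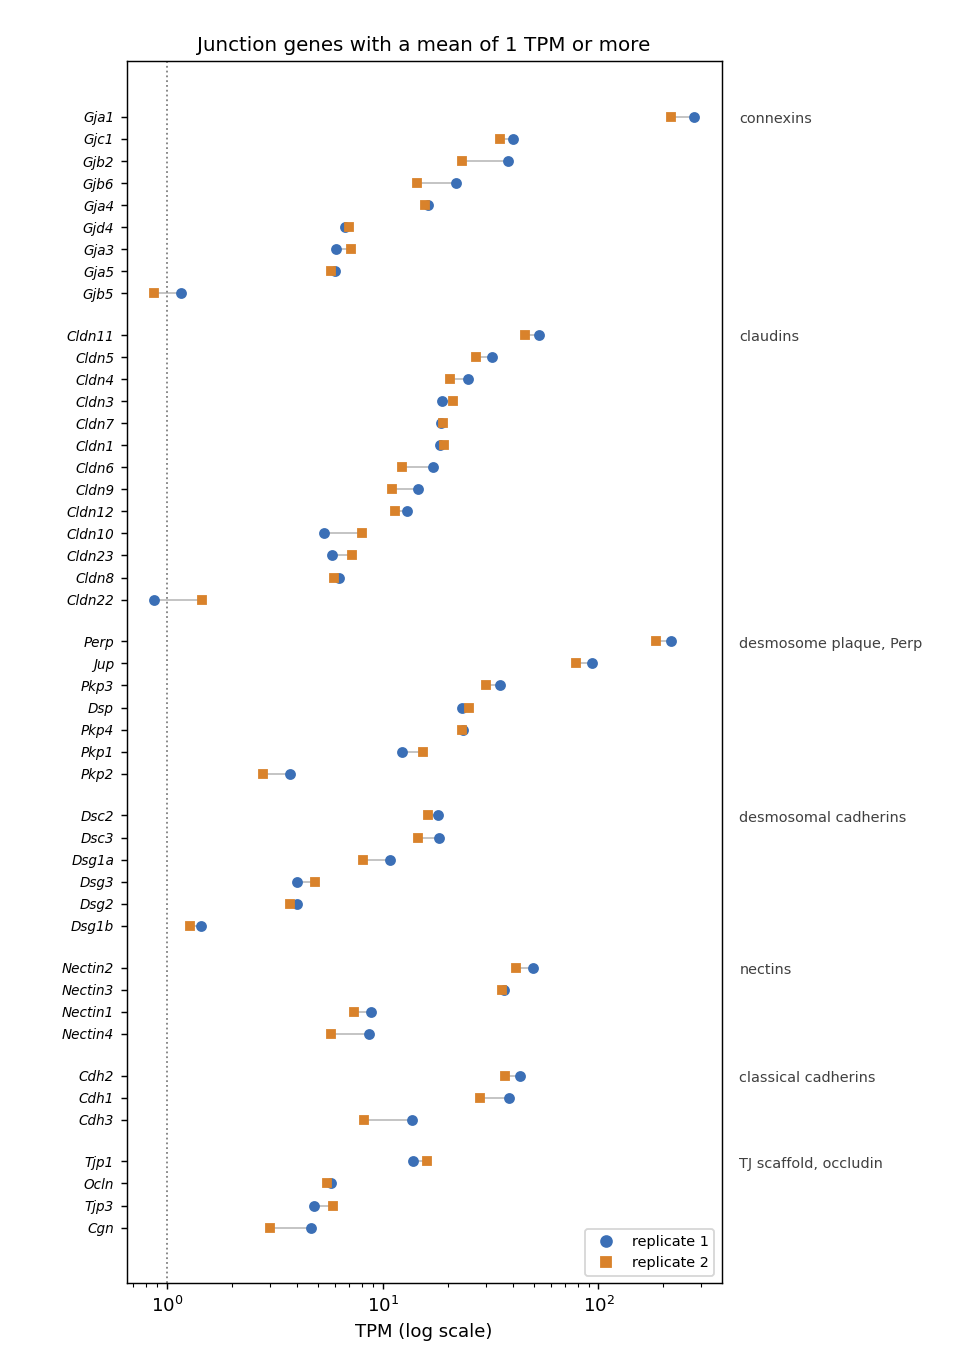
TPM (x axis, log scale) of 46 junction genes averaging at least 1 TPM, by class and in order of mean level; circles are replicate 1, squares are replicate 2, and the dotted line marks 1 TPM. Gja1 and Perp lie above all others in both libraries, and Gjb5 and Cldn22 lie on either side of the line.

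Summed over members, desmosome plaque genes with Perp had 407 and 361 TPM. Connexins had 422 and 332 TPM, so these classes changed order between the libraries. Claudins had 232 and 212 TPM, nectins 104 and 90.2 TPM, and classical cadherins 95.1 and 73.6 TPM. The desmosomal cadherins, with 57.1 and 49.6 TPM, and the tight junction scaffold with occludin, with 41.3 TPM in each library, were the lowest. A few genes carried most of the larger sums. Gja1 made up 66.0% and 65.0% of connexin TPM, and Perp made up 53.1% and 51.4% of its class.

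**Figure D2:**
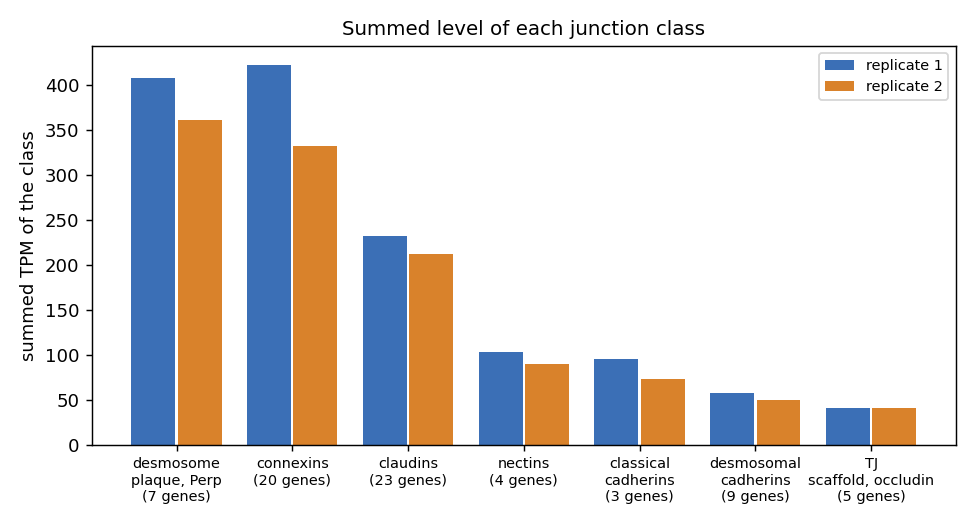
Summed TPM of all members of each junction class (y axis, from 0) in replicate 1 and replicate 2, 1 bar per library with no error bar. Connexins and desmosome plaque genes stand at 332 to 422 TPM and the tight junction scaffold with occludin at 41.3 TPM.

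Among the claudins, Cldn11 was the highest, with 53.2 and 45.6 TPM. It is best known from central myelin and the testis, where it builds barrier strands. Cldn5, the claudin of endothelium, had 32.1 and 27.0 TPM. The 8 endothelial markers summed to 330.5 and 308.7 TPM, with Pecam1 at 39.4 and 35.6 TPM. The range of Cldn11 did not overlap that of Cldn5. Both claudins were higher in replicate 1, but so was the median protein-coding gene, and neither left it beyond counting error.

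Claudins of epithelial barriers came next at similar levels. Cldn4 had 24.8 and 20.6 TPM, Cldn3 18.8 and 21.1, Cldn7 18.6 and 19.1, and Cldn1, which the skin barrier needs, 18.4 and 19.3 TPM. The ranges of Cldn4 and Cldn3 overlapped, as did those of Cldn3, Cldn7 and Cldn1, so the order among them is not fixed by these libraries. Cldn6, a claudin of embryonic epithelia, had 17.1 and 12.3 TPM, and its neighbour Cldn9 had 14.6 and 11.1 TPM. Cldn12, a claudin without the usual scaffold-binding end, had 13.02 and 11.4 TPM.

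Cldn10, Cldn23 and Cldn8 formed a lower group. Cldn10, a pore-forming claudin of glands and kidney, had 5.36 and 8.03 TPM. Cldn23 had 5.82 and 7.23 TPM, and Cldn8 had 6.29 and 5.96 TPM. Cldn22 had 0.870 and 1.45 TPM from 15.3 and 33 counts. It shares 94.6% of 610 aligned bases with its neighbour Cldn24 and 995 exon bases with Wwc2 on the opposite strand, which had 1488 and 1838 counts. The strand handling of the counting is not known here, so its level is uncertain.

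The remaining 10 claudins were under 1 TPM in both libraries. Cldn2, a cation pore of leaky epithelia, had 27 and 66 counts, or 0.460 and 0.880 TPM, a ratio of library-scaled counts (CPM) of 2.05 with an exact 95% counting interval of 1.29 to 3.34. Cldn15, of the gut, had 21 and 26 counts. Cldn14, Cldn19, Cldn20 and Cldn13 had 3 to 8 counts in each library, Cldn17 had 7 and 1, Cldn24 had 2.7 and 0, and Cldn18, of stomach and lung, had 0 and 2. Cldn16, a kidney claudin, had no count, which by counting error alone allows up to 0.158 and 0.122 TPM. Its deposited upper credibility bounds were wider, at 0.251 and 0.191 TPM.

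The scaffold beneath the tight junction was present at moderate levels. Tjp1, which ties claudins to actin, had 13.8 and 16.1 TPM. Tjp3, found mostly in epithelia, had 4.80 and 5.88 TPM. Cgn (cingulin) had 4.67 and 3.01 TPM. Ocln (occludin) had 5.76 and 5.50 TPM, with deposited credibility bounds of 5.27 to 7.37 and 4.07 to 7.15 TPM. Its counts went further apart, at 396 and 287, and its transcript shares also differed.

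Related tight junction genes outside the rule were all present. All 19 listed genes reached 1 TPM in both libraries, led by Jam3, an adhesion molecule also of vessels and mesenchyme, at 98.3 and 90.7 TPM. Mpdz, a scaffold with many binding domains, had 31.6 and 29.3 TPM, and Pard3, a polarity protein, had 31.4 and 26.9 TPM. Lowest was Ildr2 at 1.12 and 1.32 TPM.

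Promoter sequences were read from RefSeq for build GRCm38.p6 and matched 41 of the 71 genes, with 56 promoters. Those not matched included Cdh1, Cdh2, Cdh3, Cldn13, Cldn23, Cldn8, Cldn9, Dsc1, Dsc2, Dsc3, Dsg1a, Dsg1b, Dsg1c, Dsg2, Dsg3, Dsg4, Gjc1, Gjd3, Gjd4, Gje1, Nectin1, Perp, Pkp1, Pkp2 and Pkp3. In the 250 bases before each start, 2 motifs were searched on both strands: AACCNGTT, the form bound by grainyhead-like factors that control epithelial junction genes, and CACCTG, the E-box bound by Snail and Zeb repressors. The motifs were chosen because both factor groups were present: Grhl2 had 6.20 and 6.51 TPM and Grhl3 17.2 and 10.2 TPM, while Snai1 had 56.4 and 48.7, Snai2 33.9 and 28.3, Zeb1 30.8 and 28.4 and Zeb2 40.8 and 39.2 TPM. The grainyhead form was found for Cgn, Cldn5 and Gjb6, 3 of the 41 genes (7.32%). It was in the promoters of 2.00% of all 27025 genes in the table. That set is larger than the 21474 protein-coding genes with a symbol, so it need not hold protein-coding genes alone. Counted by promoter, the grainyhead form was in 3 of the 56 of junction genes, against 1.79% of all 32851 promoters. The E-box was found for 12 genes (Cldn14, Cldn4, Cldn6, Cldn7, Gja3, Gjb1, Gjb2, Gjd2, Nectin2, Ocln, Pkp4 and Tjp3), or 29.3%, against 19.4% of all genes. Counted by promoter, it was in 13 of the 56, against 17.2% of all promoters. The 2 motifs cannot overlap, and no window printed here held both. A match is a run of letters and not a measured site.

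The 3 promoters with the grainyhead form and those of Cldn4 and Cldn7, epithelial claudins with an E-box, are printed below from 5′ to 3′, with the motif in capitals. The first base of the motif lies 29 bases before the start in Cgn, 20 in Cldn5, 244 in Gjb6 and 14 in Cldn4. Cldn7 holds 2 E-boxes, at 97 and 57 bases. The RefSeq starts used for Cgn and Cldn7 match no transcript start of GENCODE M21, and the Cldn7 window lies inside the gene, which begins at 69964779, so these distances hold for the RefSeq starts alone.
Cgn, chr3:94786483-94786732, strand minus: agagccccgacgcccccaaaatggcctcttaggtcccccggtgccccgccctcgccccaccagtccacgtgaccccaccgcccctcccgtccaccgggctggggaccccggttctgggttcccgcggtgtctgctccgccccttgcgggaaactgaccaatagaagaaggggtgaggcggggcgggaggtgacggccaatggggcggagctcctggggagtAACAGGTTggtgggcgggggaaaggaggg
Cldn5, chr16:18776597-18776846, strand plus: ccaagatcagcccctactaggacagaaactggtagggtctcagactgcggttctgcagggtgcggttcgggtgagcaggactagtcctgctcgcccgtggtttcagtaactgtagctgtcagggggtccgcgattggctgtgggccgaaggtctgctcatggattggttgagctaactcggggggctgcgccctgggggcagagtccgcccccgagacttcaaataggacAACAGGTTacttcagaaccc
Gjb6, chr14:57133612-57133861, strand minus: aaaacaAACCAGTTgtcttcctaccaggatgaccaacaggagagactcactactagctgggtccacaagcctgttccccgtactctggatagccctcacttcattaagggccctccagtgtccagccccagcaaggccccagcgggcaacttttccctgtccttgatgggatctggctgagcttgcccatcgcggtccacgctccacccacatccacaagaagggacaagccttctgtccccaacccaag
Cldn4, chr5:134946935-134947184, strand minus: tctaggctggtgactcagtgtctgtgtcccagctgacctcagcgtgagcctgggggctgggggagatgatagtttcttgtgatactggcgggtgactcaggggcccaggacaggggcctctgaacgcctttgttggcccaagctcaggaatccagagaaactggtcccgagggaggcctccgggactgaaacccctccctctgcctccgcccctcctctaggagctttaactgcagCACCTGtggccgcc
Cldn7, chr11:69965171-69965420, strand plus: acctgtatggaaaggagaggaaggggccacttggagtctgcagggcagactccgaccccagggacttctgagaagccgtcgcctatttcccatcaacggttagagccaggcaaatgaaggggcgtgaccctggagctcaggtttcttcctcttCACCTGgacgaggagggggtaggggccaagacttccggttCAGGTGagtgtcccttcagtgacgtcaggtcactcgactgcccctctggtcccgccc

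Of these 5 genes, Cgn and Gjb6 were lower in replicate 2 relative to the median gene, and Cldn7 was higher. Cldn5 and Cldn4 did not leave the median beyond counting error. Whether these letters bear on the levels was not tested.

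Desmosome genes were led by Perp, a membrane protein of desmosomes in stratified epithelia, with 216 and 185 TPM. Its mean of 201 ± 22.02 TPM put it at rank 638 of all protein-coding genes. Jup (plakoglobin), shared by desmosomes and adherens junctions, had 93.1 and 78.8 TPM. Dsp (desmoplakin), which binds the keratin filaments, had 23.3 and 25.0 TPM.

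All 4 plakophilins, the armadillo proteins of the plaque, were expressed. Pkp3 had 35.0 and 30.2 TPM, Pkp4, which also sits at adherens junctions, 23.5 and 23.3 TPM, and Pkp1, of stratified epithelium, 12.3 and 15.3 TPM. Pkp2, of heart and simple epithelia, was the lowest at 3.73 and 2.79 TPM. Ranges of whole-gene TPM did not overlap between any of these 4 genes. Of the Pkp3 values, 10.6 and 9.81 TPM came from a transcript of 462 bases. Of the Pkp4 values, 15.05 and 15.08 TPM came from Pkp4-209, annotated without a coding frame. The order of Pkp3, Pkp4 and Pkp1 did not hold for the leading coding transcript of each. Pkp3-201 had 13.18 and 10.15 TPM, Pkp4-210 had 5.35 and 3.72 TPM and Pkp1-201 had 12.06 and 14.69 TPM.

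The desmosomal cadherins all lie in 1 cluster on chromosome 18, from Dsc3 at 19960930 to Dsg2 at 20604521 (mm10), a span of 644 kb. Dsc2 and Dsc3 had similar levels, at 18.1 and 16.3 TPM and at 18.2 and 14.6 TPM, with overlapping ranges. Dsg1a, of the upper epidermis, had 10.8 and 8.13 TPM, Dsg3, of the basal layers, 4.01 and 4.85 TPM, and Dsg2, found in most desmosomes, 4.0 and 3.71 TPM. The desmocollins thus stood above the desmogleins apart from Dsc1, a desmocollin of the upper epidermis, at 0.550 and 0.590 TPM.

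The 3 desmoglein 1 genes of the mouse did not share 1 level. Dsg1b had 1.44 and 1.28 TPM, a ratio to Dsg1a of 0.134 and 0.157. Dsg1c had no count, which by counting error alone allows up to 0.0381 and 0.0295 TPM. Its deposited upper credibility bounds were 0.0421 and 0.0326 TPM. The split among the 3 genes is uncertain, the 0 of Dsg1c included. Dsg1a and Dsg1b are 96.2% identical over 3599 aligned bases, and Dsg1c is 94.3% identical to Dsg1a over 1752 bases and 94.7% to Dsg1b over 1704 bases. Dsg4, of hair and cornified layers, had 1 and 11 counts, a CPM ratio of 9.22 with an exact 95% counting interval of 1.34 to 397. Beside it, the summed level of 12 periderm and suprabasal markers was 809.7 and 1150.4 TPM, whose part in it was not tested.

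The hemidesmosome genes, which fix the same cells to the basement membrane, were all 7 above 1 TPM. Their sum was 215.7 and 215.4 TPM. Itga6, the integrin of the basal surface, had 53.6 and 55.4 TPM, the filament linker Plec had 49.3 and 52.0 TPM, the tetraspanin Cd151 had 43.7 and 37.1 TPM, and Itgb4 was lowest at 8.94 and 8.12 TPM.

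Of the 3 classical cadherins of the rule, Cdh2 and Cdh1 had overlapping levels. Cdh2 (N-cadherin), of mesenchyme, nerve and muscle, had 43.1 and 37.0 TPM. Cdh1 (E-cadherin), of epithelium, had 38.3 and 28.4 TPM. The ratio of Cdh2 to Cdh1 was 1.12 and 1.30, or 1.21 ± 0.126, above 1 in both libraries. Cdh3 (P-cadherin), of basal and placode epithelium, lies beside Cdh1 on chromosome 8 and had 13.7 and 8.17 TPM, a ratio to Cdh1 of 0.358 and 0.288.

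Nectins start adherens junctions and pair between unlike cells. Nectin2 had 49.5 and 41.4 TPM and Nectin3 36.5 and 35.6 TPM. Nectin1, mutated in a human cleft syndrome, had 8.87 and 7.40 TPM, and Nectin4, mutated in an ectodermal dysplasia, 8.60 and 5.76 TPM. The first pair stood above the other in both libraries, and the ranges of Nectin1 and Nectin4 overlapped.

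All 14 listed adherens junction genes outside the rule reached 1 TPM in both libraries. Ctnnb1 (beta-catenin) had 489 and 417 TPM, Cdh11, a cadherin of mesenchyme and osteoblasts, 218 and 189.7 TPM, and Ctnna1 (alpha-catenin) 114 and 95.7 TPM. Cdh11 was thus above every classical cadherin of the rule in both libraries. Ctnna3 was lowest at 1.45 and 1.19 TPM.

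Gap junction genes were led by Gja1, the connexin of mesenchyme, bone and skin whose mutations cause a human disorder of eyes, teeth and digits. It had 278 and 216 TPM, from 16507 and 16524 counts, at rank 508 of all protein-coding genes (chromosome 10, start 56377330). Gjc1, of vessel wall and embryonic heart, had 40.2 and 35.0 TPM. The epithelial pair Gjb2 and Gjb6, which form mixed channels in ear and skin, had 38.2 and 23.2 TPM and 21.8 and 14.5 TPM. Gja1 stood 7.29 and 9.30 times above Gjb2.

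Connexins known from single tissues followed at lower levels. The arterial and endothelial connexins Gja4 and Gja5 had 16.2 and 15.7 TPM and 6.0 and 5.78 TPM. Gja5 shares 165 exon bases with Gpr89 on the opposite strand. Gjd4, of developing muscle, had 6.71 and 7.02 TPM beside a summed level of 6 muscle markers of 4972 and 6259 TPM. Gja3 had 6.09 and 7.15 TPM. It is best known from the lens, and the 6 lens markers summed to 5.70 and 6.41 TPM. Of these Bfsp2 had 2.70 and 2.81 TPM, Bfsp1 had 2.40 and 2.91 TPM, Cryaa had 0.230 and 0.690 TPM and Lim2 had no count.

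Gjb5, a connexin of the epidermis, was low at 1.16 and 0.870 TPM, from 37 and 36 counts. Gjc3 and Gjb1, connexins of myelinating glia, were detected below 1 TPM. Gjc3 had 27 and 58 counts and Gjb1 11 and 14, while the 6 peripheral glial markers summed to 122 and 118 TPM with Sox10 at 12.8 and 13.1 TPM. Gjd2, the connexin of neurons, had 14 and 13 counts, Gjd3 had 4 and 8 and Gja6 had 6 and 7. Gja10 and Gje1 had no count in either library, which allows at most 0.110 TPM.

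Pannexins, relatives in structure that form channels of a single membrane, did not keep 1 order in both libraries. Panx3, of bone and cartilage, had 30.6 and 42.2 TPM, Panx1 had 34.2 and 31.8 TPM, and Panx2 0.400 and 0.320 TPM. Panx1 was thus the higher in replicate 1 and Panx3 in replicate 2. The 5 osteoblast markers summed to 3648 and 4586 TPM and the 5 chondrocyte markers to 759 and 438 TPM, and their part in the Panx3 values was not tested.

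Members of these families often lie side by side, and 31 of the 71 genes fell into 10 groups of neighbours whose starts lie within 200 kb. Levels within a group ranged widely in most of them. On chromosome 17, Cldn6 (23679249 to 23682446) and Cldn9 (23682584 to 23684026) lie next to each other and had like levels, with a ratio of Cldn9 to Cldn6 of 0.854 and 0.898. On chromosome 5, Cldn4 and Cldn3 lie 41.1 kb apart at 20.6 to 24.8 and 18.8 to 21.1 TPM, while Cldn13 beside them had 3 counts in each library.

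On chromosome 16, Cldn1 at 18.4 and 19.3 TPM lies 106 kb from Cldn16, which had no count, and Cldn8 at 6.29 and 5.96 TPM lies 55.02 kb from Cldn17. On chromosome 4, Gja4 at 16.2 and 15.7 TPM lies in a group with Gjb5 at 1.16 and 0.870 TPM. On chromosome 14, Gja3, Gjb2 and Gjb6 stood at 6.09, 38.2 and 21.8 TPM in replicate 1 and at 7.15, 23.2 and 14.5 TPM in replicate 2.

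**Figure D3:**
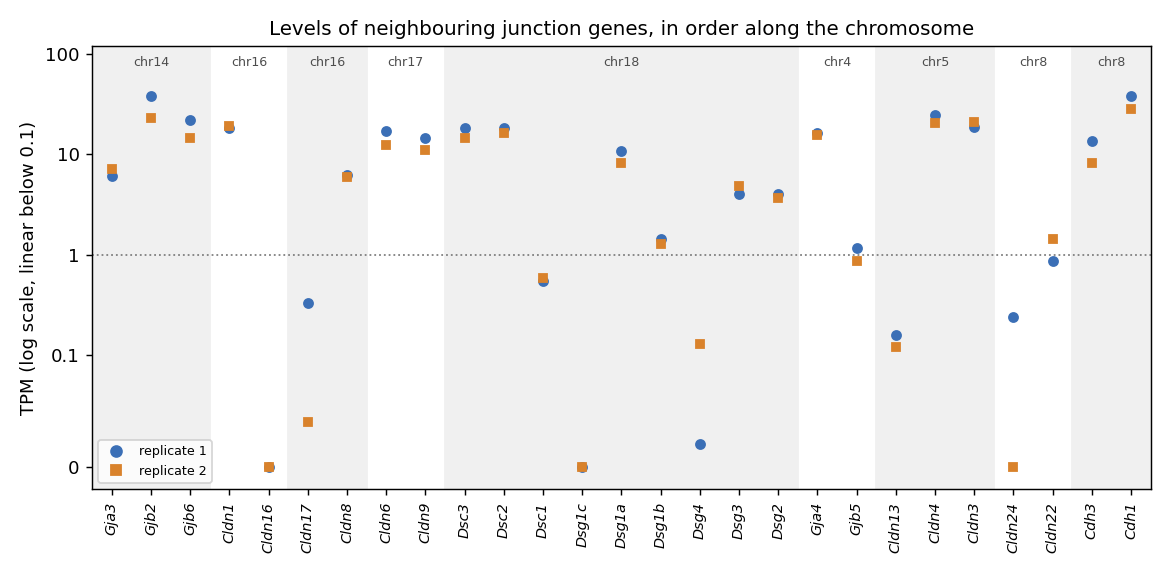
TPM (y axis, log scale above 0.1 and linear below) of 27 junction genes in 9 groups of neighbours, in order along each chromosome; circles are replicate 1, squares replicate 2, shading separates groups and the dotted line marks 1 TPM. Cldn6 and Cldn9 sit at 11.1 to 17.1 TPM, and Cldn16 at 0 beside Cldn1 at 18.4 and 19.3 TPM.

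Differences between the libraries were taken as log2(TPM + 1) of replicate 2 minus replicate 1, a scale that understates the change of low genes. Among the 13996 protein-coding genes that averaged at least 1 TPM, the median was −0.14 with an SD of 0.27, so differences are also given relative to that median gene. None of the 48 junction genes at this level was 2-fold higher or lower, where 0.772% of all such genes were 2-fold higher in replicate 2 and 0.136% were 2-fold lower. At these shares, fewer than 1 gene in 48 would be past 2-fold, so the count of 0 says nothing particular about the members. The lowest value was −0.70, in Gjb2, and the highest 0.51, in Cldn10. Relative to the median gene, 21 of the 48 were higher in replicate 2 and 27 lower.

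Depth allowed smaller differences to be told from counting error. For each gene, the ratio of counts scaled to library total (CPM) between the libraries was given an exact 95% binomial interval and set against the median gene's ratio of 0.977. The interval lay above it for 14 of 48 junction genes (29.2%), against 23.4% of all genes, and below it for 17 (35.4%), against 22.1%. Such an interval compares 2 libraries and holds no spread between embryos.

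**Figure D4:**
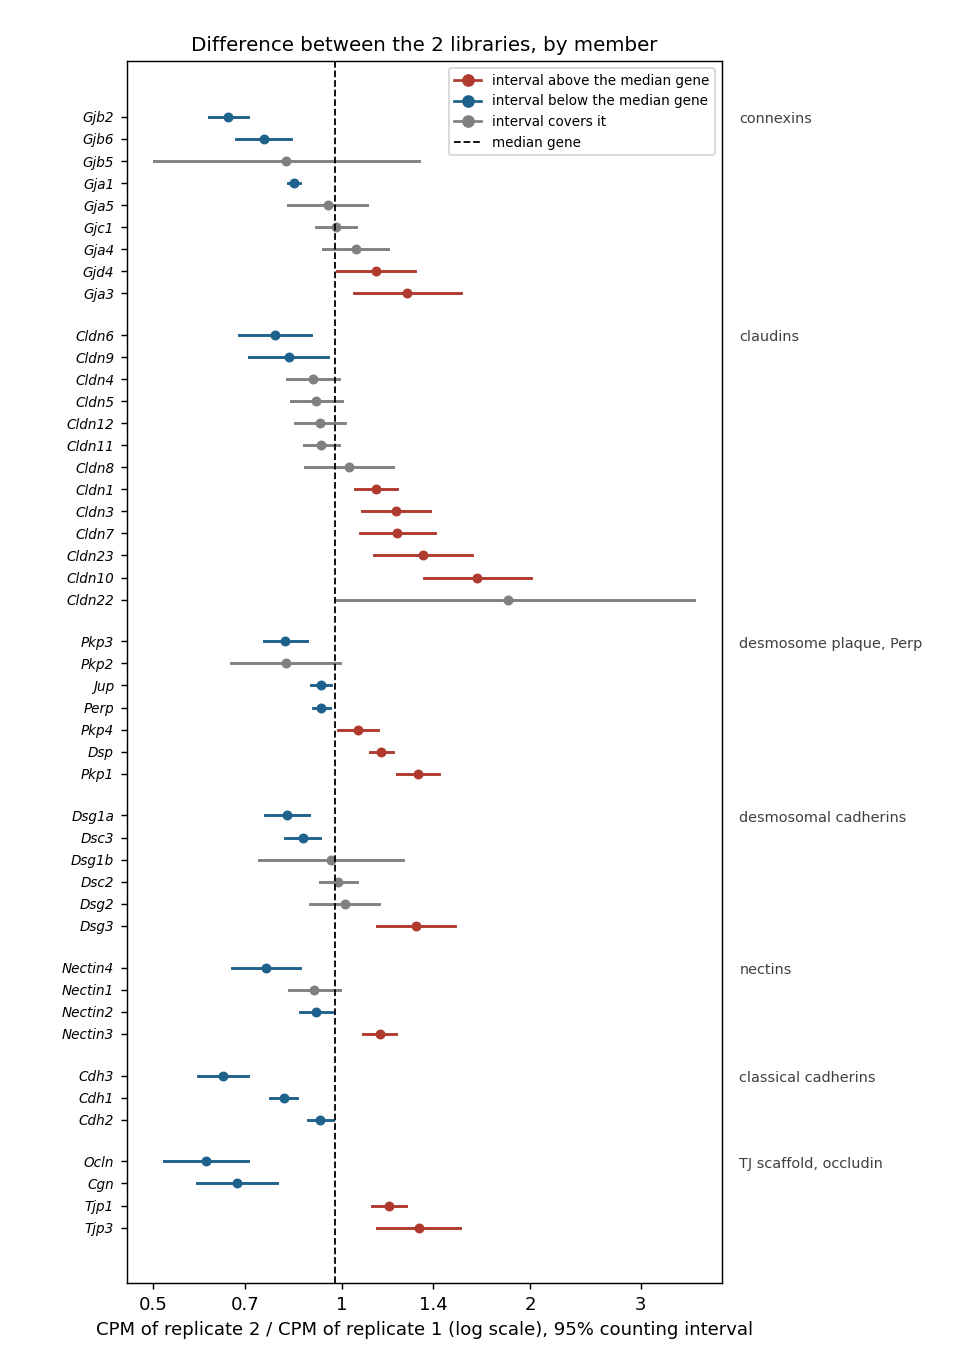
CPM of replicate 2 over CPM of replicate 1 (x axis, log scale) for 46 junction genes by class, with exact 95% counting intervals as lines and the median gene at 0.977 as a dashed line. Gjb2, Cdh3, Ocln and Cgn lie lowest, at 0.608 to 0.681, and Cldn10 and Cldn22 highest.

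The 17 genes whose interval lay below the median gene came from all 7 classes. All 3 classical cadherins were below the median gene, by −0.54 for Cdh3, −0.28 for Cdh1 and −0.08 for Cdh2 on the log2 scale. Gjb2 was at −0.56 and its partner Gjb6 at −0.42, and Gja1 at −0.23. The CPM ratio was 0.658 for Gjb2 (0.613 to 0.707), 0.646 for Cdh3 (0.589 to 0.709) and 0.839 for Gja1 (0.821 to 0.858). Also lower were Nectin4 at −0.37, Cgn at −0.36, Cldn6 at −0.30 and Cldn9 at −0.23, and Dsg1a at −0.23 and Dsc3 at −0.17.

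The 14 genes whose interval lay above it included 5 claudins. Cldn10 was at 0.64 relative to the median gene, with a CPM ratio of 1.64 (1.35 to 2.01). Cldn23 was at 0.41, Cldn3 at 0.30 and Cldn1 at 0.20. In the desmosome Pkp1 was at 0.44, Dsg3 at 0.36 and Dsp at 0.24, with a CPM ratio of 1.32 for Pkp1 (1.23 to 1.43). Tjp3 and Tjp1 were at 0.38 and 0.35, and the connexin Gja3 at 0.34.

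Within 1 structure the genes thus lay on both sides of the median gene. In the desmosome, intervals lay above it for Pkp1, Dsp, Pkp4 and Dsg3 and below it for Pkp3, Jup, Perp, Dsg1a and Dsc3. In the tight junction scaffold they lay above it for Tjp1 and Tjp3 and below it for Cgn and Ocln. The direction relative to the median gene differed between TPM and CPM for Dsc2, Dsg1b, Gja5, Gjc1 and Ocln, and did not for the other 43 of the 48 genes.

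Class medians relative to the median gene ranged from −0.28 for classical cadherins and −0.10 for nectins to 0.07 for claudins and 0.08 for the tight junction scaffold with occludin. By CPM those of classical cadherins and nectins were −0.27 and −0.10. Claudins were at 0.07 by CPM, and the tight junction scaffold with occludin was at −0.05. Over the settings tried, the sign held for classical cadherins and nectins alone. It changed for claudins, the tight junction scaffold with occludin, desmosomal cadherins, desmosome plaque genes with Perp, and connexins. Centring on all genes or on basal epithelial markers could not change it, since values are taken relative to the median gene. Classical cadherins and nectins are also small classes, of 3 and 4 genes, and Nectin3 itself lay above the median gene, at 0.10. The 12 basal epithelial markers, of which Perp is also a junction gene and holds 216 and 185 TPM, had a median of −0.02 relative to the median gene and a sum of 995 and 968 TPM. The periderm and suprabasal markers had a median of 0.85 with 9 of 12 higher, and 5 of 12 were 2-fold higher in replicate 2.

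The 7 secretory and respiratory markers summed to 241 and 376 TPM, with 6 of 6 expressed members higher relative to the median gene and Scgb3a1 at 0. Among them Bpifa1, a secreted protein of the nasal lining, had 74.7 and 134 TPM. The chondrocyte markers had a median of −0.53 with 5 of 5 lower. The part of these lists in the junction gene differences was not tested.

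Transcript shares were read for the 40 junction genes with a mean of 5 TPM or more, of which 19 had more than 1 annotated transcript in the tables. The leading transcript took a median of 67.3% of a gene's TPM. It held 90% or more in 5 genes, among them Cdh1 with 99.0% ± 0.332 for Cdh1-201, and under 60% in 7. By deposited percentage, the leading transcript differed between the libraries in 2 genes, Dsc2 and Ocln. By share of expected counts Ocln-202 led in both libraries, with 74.8% and 64.6%, and the difference remained for Dsc2 alone of this pair.

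Dsc2 has long and short tails by alternative splicing, and its main transcripts differ by little in length. Dsc2-201 (4630 bases) had 53.1% in replicate 1 and 38.4% in replicate 2, and Dsc2-202 (4508 bases) had 41.6% and 59.6%. Their counts were 858 and 723 for Dsc2-201 and 655 and 1092 for Dsc2-202. In Ocln, the full-length Ocln-202 (4052 bases) had 65.9% and 33.5%, while the short Ocln-204 (390 bases) had 0% and 34.4% from 0 and 14.0 counts. Since TPM divides by length, these few counts gave Ocln-204 1.89 TPM in replicate 2. Other transcripts shifted too, with 87.3 and 0 counts for Ocln-201 (2839 bases) and 12.6 and 67.0 for Ocln-203 (1950 bases). The effective length of the whole gene was 3486 and 2049 bases. On the log2 scale relative to the median gene, Ocln was at 0.08 by TPM and −0.62 by CPM.

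Pkp3 had the smallest leading share of the 19 genes. The leading Pkp3-201 had 37.6% and 33.6%, followed by a transcript of 462 bases that is not in GENCODE M21 with 30.3% and 32.5%. In Pkp4 the leading Pkp4-209 (2505 bases), annotated as a processed transcript without a coding frame, had 64.1% and 64.8%, and the coding Pkp4-210 had 22.8% and 16.0%. The 2 long desmoplakin transcripts kept their split, with 66.1% and 68.5% for Dsp-202 (7761 bases) and 33.9% and 31.5% for Dsp-201 (9538 bases).

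Tjp1-202 (7049 bases) held 73.2% and 69.6% of Tjp1, the short non-coding Tjp1-203 (699 bases) 13.2% and 19.3%, and Tjp1-201 (6102 bases) 13.6% and 11.1%. Cldn10 is made from alternative first exons, and both forms were present, Cldn10-201 with 55.4% and 53.4% and Cldn10-203 with 44.6% and 46.6%. Both had more counts in replicate 2, with 61.4 and 115 for Cldn10-201 and 95.6 and 193 for Cldn10-203. Cldn18 and Pkp2 were under the 5 TPM limit for this reading. Nectin4, chosen after its values were seen, kept Nectin4-202 at 54.3% and 52.0%, while Nectin4-201 had 12.1% and 44.1% and Nectin4-203 had 33.7% and 3.94%.

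**Figure D5:**
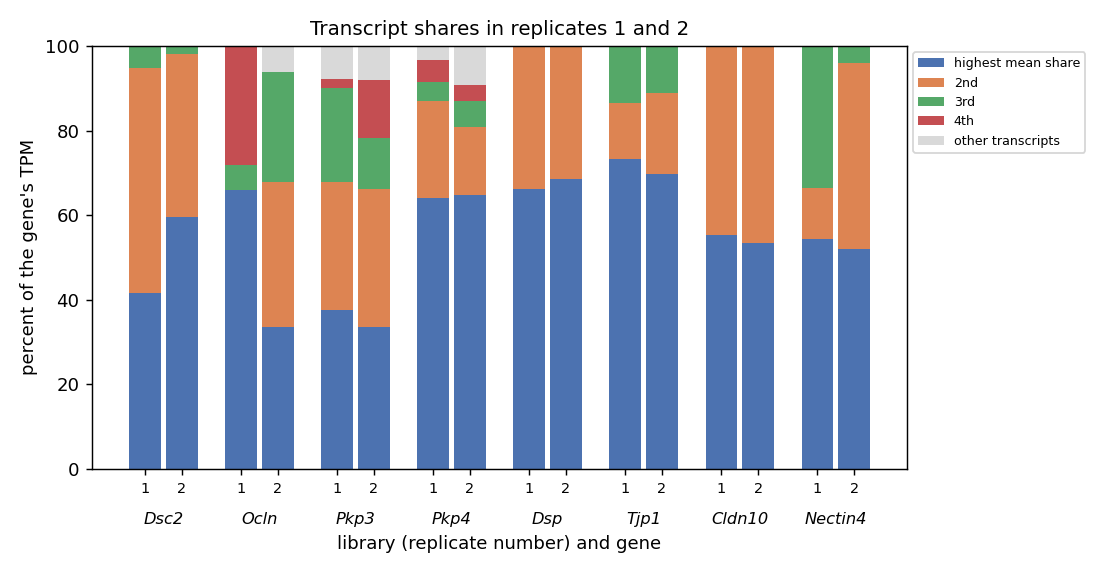
Percent of the gene's TPM (y axis) held by each transcript in replicates 1 and 2 of 8 junction genes, stacked from the transcript with the highest mean share. Shares of Dsp, Tjp1 and Cldn10 are alike in both libraries, while those of Ocln, Dsc2 and Nectin4 differ.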

How the data were processed

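Both libraries started from 10.0 ng of RNA extracted with mirVana, and the labels link a SMART-seq protocol. The authors deposited gene and transcript tables on mm10, and their companion text names GENCODE M4. Aligner, quantifier and strandedness: not given in the sources used here. Per the file headers, the values include the authors' expected counts, which need not be whole. The deposited TPM and FPKM values are scaled per effective length, and the deposited transcript percentages are percent of a gene's TPM. The deposited credibility bounds give no level.

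Names came from GENCODE M21, matched by Ensembl identifier for 42462 of 43346 genes. Ratios used log2(TPM + 1), with genes at a mean TPM of 1 or more, and exact 95% binomial intervals of rounded expected counts scaled to Ensembl gene totals. TMM factors (edgeR 4.0.16) and size factors (DESeq2 1.42.0, R 4.3.3) served for scaling alone, and near copies came from BLAST 2.17.0 (85% identity, 200 bases). Other work used scipy 1.17.1, matplotlib 3.10.9, pandas 2.3.3 and numpy 2.4.6 under Python 3.11.15. The fold rule, applied to CPM, and the intervals were run on simulated counts that held counting error alone. Such counts hold no spread between embryos, so the run checked the calculation and not its fit to these libraries. Members at a mean of 1 TPM are named with values, as are genes at 0, neighbours within 200 kb, list extremes and transcripts of members at 5 TPM. A few members are not reported here, and counts and sums over members include them. Although the rule for members reads names alone, it, the lists and the other rules were chosen with earlier results of these data known. Other thresholds, pseudocounts, units, scalings and left-out replicates were tried. The interval rule and a combined pseudocount and filter setting were added after the data were seen.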

Additional observations from a re-analysis of the deposited data

How the results depend on the processing

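The number of junction genes expressed in both libraries stayed within 1.5 times of 46 under every threshold, unit and left-out replicate tried, from 39 to 56. No member was 2-fold apart under any planned setting, each of which adds a pseudocount that holds low genes back. With a pseudocount of 0.1 and no limit on TPM, chosen after the data were seen, 2 were lower, Cldn17 and Cldn24. Without a pseudocount, low genes could be past 2-fold upward as well, with CPM ratios of 9.22 for Dsg4 and 2.05 for Cldn2. With genes limited to a mean of 5 TPM, the class median log2 ratio went from −0.06 to 0.08 for the tight junction scaffold with occludin and from −0.12 to −0.30 for desmosomal cadherins, since fewer genes enter. In FPKM the summed levels were 145.5 for claudins, 27.1 for the tight junction scaffold with occludin, 34.95 for desmosomal cadherins, 252 for desmosome plaque genes, 55.2 for classical cadherins, 63.5 for nectins and 247 for connexins, since FPKM is not scaled to a fixed total. The ratio of Cdh2 to Cdh1 was 1.13 by expected counts with no length correction, against 1.21 ± 0.126 by TPM. Its values by FPKM and by left-out replicate could not leave that spread, so they say nothing of how firm it is. By expected counts the transcript that leads by deposited percentage held 38.1% in Cldn10, where Cldn10-203 then led with 60.9% and 62.8%, 69.7% in Ocln, 62.5% in Dsp, 57.1% in Pkp3, 53.6% in Pkp4 and 85.6% in Tjp1, because counts are not divided by length. No paired analysis was possible because there is only 1 group. Depth limits what can be said of the 23 members under a mean of 1 TPM.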

Other observations

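Some relatives of the claudins lie outside the name rule, and they are given here as values chosen after they were seen. Cldnd1, a claudin-domain gene, had 118 and 100.3 TPM, above every claudin of the rule in both libraries. Of 10 Cldn34 genes on the X chromosome 9 had no count in either library. The other, Cldn34c1 (123103495 to 123188795, mm10), had 11.9 and 9.78 TPM from 233 and 237 counts. Cldnd2 had no count in either library.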
